A study of Mus musculus with 59 samples.

Results

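The acute phase response genes are the genes whose products the liver releases into the blood in inflammation, together with the receptors and regulators that control them. Of 37 such genes taken from a named list, 32 had a probe set annotated to that symbol alone and are described here, among 18193 genes measured in all. They are the serum amyloid A genes Saa1, Saa2, Saa3 and Saa4, 8 transport and iron proteins, 3 fibrinogen chains, 4 pattern recognition proteins, 4 protease inhibitors, 2 complement proteins, 3 cytokine receptors and 4 signalling and transcription factors. Each gene was read from the probe set with the highest mean over the arrays, and C3, C4b, Serpina1a, Serpina3k and Serpina3m were not analysed here. Of the 32 genes, 20 had 1 probe set and 12 had several.

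The series measured liver RNA of mice aged 4 weeks, on a mixed background of FVB/NT, 129S1/Svlmj and C57BL/6NT, on Affymetrix arrays. There were 12 arrays of wildtype mice (wt), 10 of the E2F3a knockout (3aKO), 10 of the E2f1 knock-in (1KI) and 5 of the E2f3b knock-in (3bKI). E2f1 and the 2 E2f3 proteins are cell cycle transcription factors. The labels do not say into which locus the knock-ins were placed, or that each array holds a separate animal, so p-values measure the spread between arrays. The submitters gave log2 values in 2 separate normalizations, the first with wt, 3aKO and 1KI and the second with the same wt and 3aKO arrays and 3bKI. Each comparison below stays within 1 of them, and 1KI was never set against 3bKI. The comparisons with wt, like those with 3aKO, share their control arrays and are not independent of each other.

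In the acute phase response, interleukin 6 binds its receptor Il6ra, which pairs with the shared signalling chain Il6st (gp130), and the transcription factor Stat3 is activated in hepatocytes. Interleukin 1 acts through Il1r1 and NF-kB, and the C/EBP factors Cebpb and Cebpd bind the promoters of many of the secreted proteins. Socs3 is induced by Stat3 and shuts the interleukin 6 signal off. Serum amyloid A, the most strongly induced group in the mouse, travels on high-density lipoprotein.

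The promoters of the 6 called genes with the largest changes in a knock-in against wt, among those with a promoter sequence in the RefSeq table for GRCm38.p6, are shown because these genes are the ones the results turn on. Each line gives the 250 bases before an annotated transcription start, on the gene's strand and read 5′ to 3′, and capitals mark a match to the STAT motif TTCNNNGAA, the C/EBP motif TTGCNNAA or the NF-kB consensus on either strand. Il1r1 has 2 annotated starts.
Saa1, GRCm38.p6 chr7:46742981-46743230, minus strand: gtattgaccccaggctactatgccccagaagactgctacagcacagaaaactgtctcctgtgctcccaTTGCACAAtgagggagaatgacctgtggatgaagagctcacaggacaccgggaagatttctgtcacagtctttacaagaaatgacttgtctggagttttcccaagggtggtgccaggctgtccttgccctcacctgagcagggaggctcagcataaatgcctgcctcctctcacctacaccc
Lcn2, GRCm38.p6 chr2:32387740-32387989, minus strand: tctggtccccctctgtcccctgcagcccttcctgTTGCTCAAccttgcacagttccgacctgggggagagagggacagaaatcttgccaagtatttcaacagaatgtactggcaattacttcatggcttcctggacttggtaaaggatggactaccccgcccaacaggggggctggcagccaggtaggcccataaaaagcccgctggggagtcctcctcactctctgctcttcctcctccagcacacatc
Il6ra, GRCm38.p6 chr3:89913197-89913446, minus strand: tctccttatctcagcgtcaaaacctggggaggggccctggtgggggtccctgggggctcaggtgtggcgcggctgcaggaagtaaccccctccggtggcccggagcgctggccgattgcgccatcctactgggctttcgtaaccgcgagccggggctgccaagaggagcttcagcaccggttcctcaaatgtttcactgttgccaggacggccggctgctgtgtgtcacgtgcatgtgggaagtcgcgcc
Il6st, GRCm38.p6 chr13:112463820-112464069, plus strand: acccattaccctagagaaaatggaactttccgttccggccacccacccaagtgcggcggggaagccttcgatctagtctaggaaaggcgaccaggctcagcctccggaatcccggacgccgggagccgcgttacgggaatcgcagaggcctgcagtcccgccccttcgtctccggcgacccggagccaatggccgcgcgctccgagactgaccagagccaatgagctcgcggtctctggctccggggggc
Il1r1, first start, GRCm38.p6 chr1:40224830-40225079, plus strand: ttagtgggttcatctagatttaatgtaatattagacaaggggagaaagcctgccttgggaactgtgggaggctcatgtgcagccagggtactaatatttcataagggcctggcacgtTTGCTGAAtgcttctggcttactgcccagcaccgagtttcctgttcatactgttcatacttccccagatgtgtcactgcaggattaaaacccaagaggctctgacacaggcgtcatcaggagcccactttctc
Il1r1, second start, GRCm38.p6 chr1:40266336-40266585, plus strand: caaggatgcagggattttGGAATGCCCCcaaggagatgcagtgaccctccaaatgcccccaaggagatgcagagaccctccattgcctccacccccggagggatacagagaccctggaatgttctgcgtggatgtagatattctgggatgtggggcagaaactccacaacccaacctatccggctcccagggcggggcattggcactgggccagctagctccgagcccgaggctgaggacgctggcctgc
Socs3, GRCm38.p6 chr11:117969367-117969616, minus strand: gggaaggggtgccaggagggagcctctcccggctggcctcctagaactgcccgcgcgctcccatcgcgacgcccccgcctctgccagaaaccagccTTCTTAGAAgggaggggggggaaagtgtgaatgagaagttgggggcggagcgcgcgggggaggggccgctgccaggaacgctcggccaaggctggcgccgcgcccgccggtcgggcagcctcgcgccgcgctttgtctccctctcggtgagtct
The Saa1 and Lcn2 stretches and the first Il1r1 stretch each held 1 C/EBP match, with its first base at −182, −216 and −133, where the start is +1 and the base before it −1. Socs3 held 1 STAT match at −154, the second Il1r1 stretch held 1 NF-kB match at −232, and the Il6ra and Il6st stretches held none of the 3 motifs. Over windows of 300 bases that also take in the 50 bases from the start on, 14 of 27 windows of 25 acute phase genes held a C/EBP match (51.9%), against 10.8% of 32851 promoters in the table. A STAT match was in 6 of the 27 windows (22.2%, against 8.3% of all promoters) and an NF-kB match in 2 (7.41%, against 8.46%). The matches describe the letters in these windows and say nothing of binding. The Saa1 and Saa2 windows were 96.0% identical over their aligned bases. The transcripts of these 2 genes are also known to be close copies, so their probe sets can share signal.

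Several arrays stood apart and are named before the results. In the 1KI group, replicate 3 had 11 acute phase genes more than 1 log2 unit above the group median, was the highest 1KI array for 27 of 32 genes and lay above every wt array for 29. Its Kupffer cell and macrophage marker mean (12 genes, 10.23) and its neutrophil marker mean (11 genes, 6.21) were also the highest of the 1KI arrays. The neutrophil mean was raised through S100a8 (7.96) and S100a9 (9.1). Mpo (5.1), Ngp (5.37) and Camp (5.09) lay within the range of the other 1KI arrays. Replicate 8 had 4 genes that far above the group median, Saa1, Saa2, Lcn2 and Orm2, and replicate 6 had 4 that far below it, Lcn2, Orm2, Lbp and Serpina3n. Replicate 6 also had the largest signal gap between the 3′ and 5′ ends of control transcripts, 1.75, against 0.48 to 0.645 in wt. All 5 3bKI arrays had a smaller gap, 0.275 to 0.36, than the wt arrays of the second normalization, 0.475 to 0.65, and its part in the 3bKI results was not tested. Among 3bKI arrays, replicate 4 had Saa1, Saa2 and Socs3 more than 1 unit above the group median. Among 3aKO arrays, replicate 2 had Saa2, Saa3, Orm2 and Orm3 that far above, with the highest Kupffer cell and macrophage marker mean of its group (10.10, first normalization).

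Hepatocyte markers were at a mean of 13.25 to 13.57 in all arrays, the neutrophil markers at 5.4 to 6.21 beside array medians of 5.83 to 6.00, and the Kupffer cell and macrophage markers at 8.58 to 10.23. In bulk liver, fewer cells of a type and less RNA per cell cannot be told apart. E2f3 had medians of 8.00 in wt and 7.72 in 3aKO, a difference of −0.25 (SE 0.07, limma adjusted p = 0.13). E2f1 had medians of 6.49 in wt and 6.32 in 1KI, where it was not higher (−0.25, SE 0.11, adjusted p = 0.086). E2f3 differed by −0.24 between 3bKI and wt (SE 0.09, adjusted p = 0.049). The probe sets are not known to tell E2f3a from E2f3b or to read the knock-in transcripts, so these values check no label. The hybridization controls added to each array read higher in all 10 1KI and all 5 3bKI arrays, and in 2 of 12 wt arrays, replicates 1 and 2, than in the other wt arrays and every 3aKO array. Their mean was 11.0 to 11.8 in 1KI and 9.97 to 10.4 in 3aKO (first normalization), and 11.2 to 11.9 in 3bKI (second). The poly-A controls, added before labelling, read a mean of 13.8 in 3bKI and 8.49 to 9.70 in wt. For those the part of the processing and that of the genotype cannot be told apart in 3bKI, and genotype and hybridization control level are nearly confounded. The main differences are also given against those 2 wt arrays. Both carried Y-linked signal (see Lcn2 below), as did 5 of the 10 1KI and 3 of the 5 3bKI arrays. In those values, and in fits with that level as a block, Y-linked signal and control level are therefore mixed.

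In 3aKO livers no acute phase gene passed the test against wt, while in each knock-in some did. Lcn2, Saa1, Socs3, Lbp and Fga were called higher in both, and Il6ra was called higher in 1KI and lower in 3bKI. None of the genes called higher in both was called in either knock-in when the hybridization control level was a block. In 3aKO against wt, none of 32 was called by limma at an adjusted p of 0.05 (all genes 0.11% higher and 0.066% lower), and 2 had an unadjusted p under 0.05, both higher, Il1r1 (0.33, adjusted p = 0.352) and Stat3 (0.19, adjusted p = 0.404). The log2 differences of 3aKO from wt were −0.18 for Saa1, −0.18 for Saa2, 0.34 for Lcn2, −0.13 for Il6ra, 0.16 for Socs3 and 0.01 for Apcs. In 1KI against wt, 13 were higher, 1 lower and 18 did not pass (all genes 10.2% higher and 17.5% lower), with a median log2 difference of 0.18 against −0.05 over all genes. In 3bKI against wt, 5 were higher, 5 lower and 22 did not pass (all genes 13.4% higher and 15.9% lower), with a median of 0.00 in both. The share of acute phase genes called higher was 40.6% in 1KI and 15.6% in 3bKI, so that in 3bKI it lay near the background of all genes in both directions. Fewer genes were called when the hybridization control level was a block, a fit that in effect sets the knock-ins against 2 wt arrays. There 2 were higher (Cebpd and Il1r1) and 0 lower in 1KI, and 0 higher and 2 lower (Il6ra and Il6st) in 3bKI. Of the 14 genes called in 1KI, 9 kept their log2 difference within 1.5 times under the block, 4 were smaller (Apcs, Fga, Lbp and Saa1) and Cebpd was larger. Of the 10 called in 3bKI, 7 stayed within 1.5 times and Cp, Fga and Saa1 were smaller. Leaving out 1KI replicates 3 and 8 together left 8 higher and 1 lower, and 3bKI without replicate 4 had 3 higher and 4 lower, or without replicate 3 had 6 higher and 3 lower. The shares of all genes called in these alternative fits are not given here. Whether the acute phase genes lost calls more than other genes can therefore not be read from the counts.

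**Figure D1:**
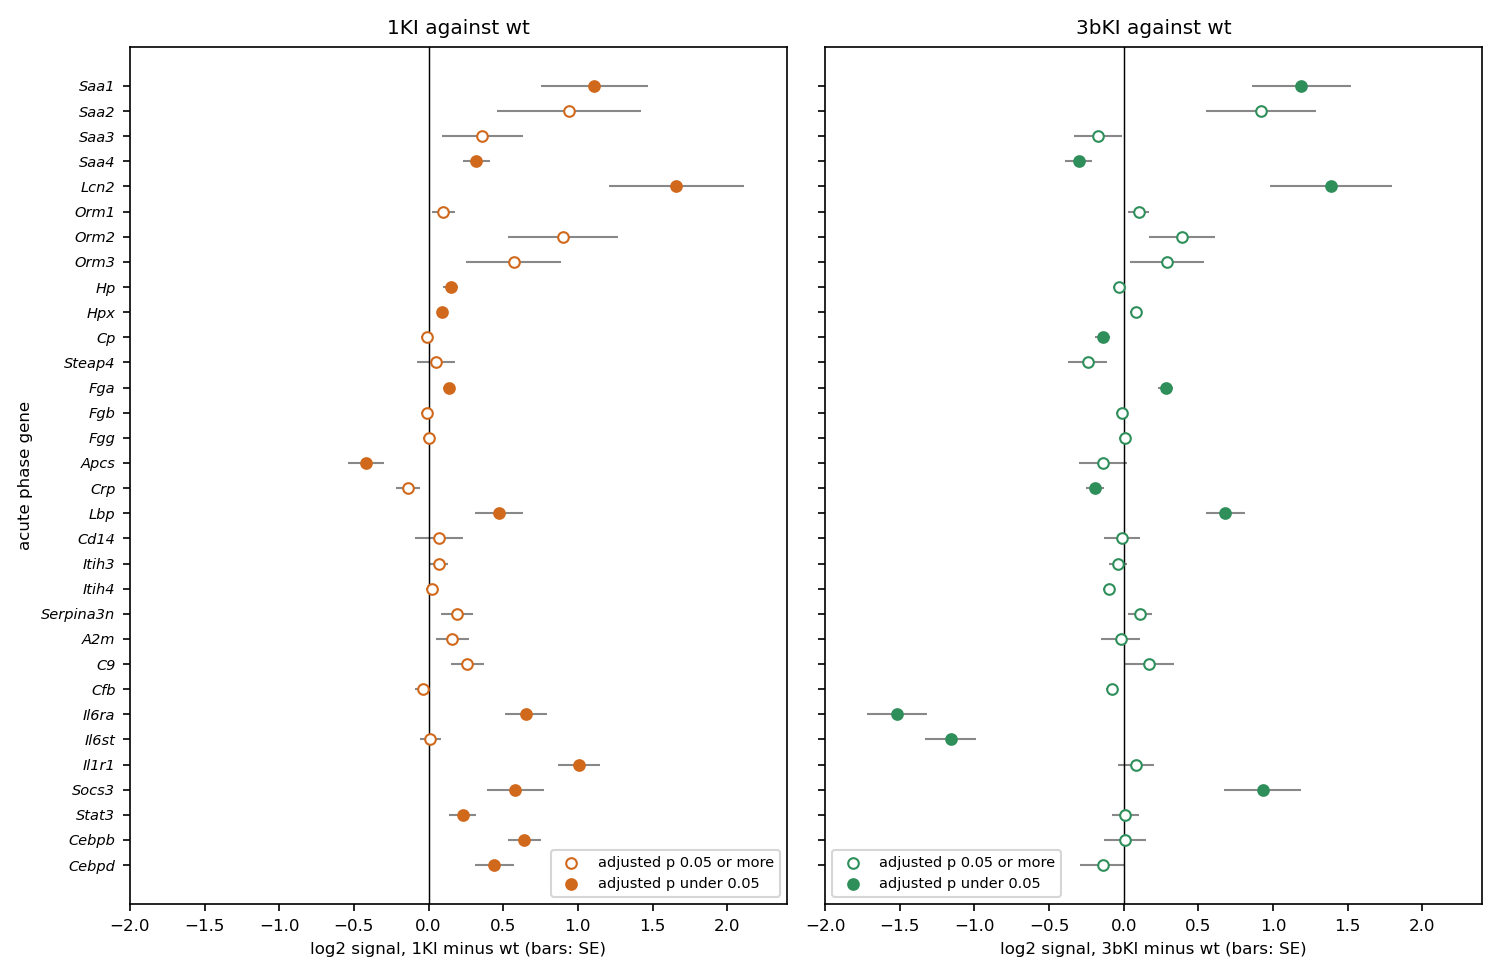
Log2 difference from wt of each of the 32 acute phase genes (vertical axis, grouped by role) in 1KI (left) and 3bKI (right), with the SE as bars and filled points where the limma adjusted p was under 0.05. Lcn2 and Saa1 lie right of 0 in both panels, at 1.66 and 1.11 in 1KI and 1.39 and 1.19 in 3bKI, while Il6ra lies at 0.65 in 1KI and −1.52 in 3bKI.

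Against 3aKO, which carries its own E2f3a change, the counts were 9 higher and 1 lower in 1KI (all genes 11.9% and 19.0%) and 6 higher and 4 lower in 3bKI (all genes 16.5% and 17.7%). When that level was a block these became 1 higher and 0 lower in 1KI and 0 higher and 2 lower in 3bKI. All 3aKO arrays were at the lower level, so in this fit the level is estimated from the wt arrays. Without 1KI replicates 3 and 8, 6 were higher and 1 lower, and 3bKI without replicate 4 had 3 higher. The median differences were 0.17 in 1KI and −0.02 in 3bKI.

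Saa1 was higher in both knock-ins, with some arrays far above the rest. In wt its signal ran from 9.83 over a median of 10.4 to 11.34, and in 3aKO from 9.75 over 10.16 to 11.15. In 1KI it ran from 9.56 over 11.38 to 13.97, with replicates 3 and 8 at 13.97 and 13.76 and replicate 9 at 12.31. The 1KI range held the whole wt range, with 5 of 10 arrays above every wt array and replicate 5 below all of them. The means were 10.44 ± 0.53 in wt (SD, n = 12) and 11.55 ± 1.44 in 1KI (SD, n = 10), a log2 difference of 1.11 (SE 0.36, 2.16-fold, limma adjusted p = 0.020). Without replicate 8 it was 0.86 (adjusted p = 0.050, just past the threshold), without replicates 3 and 8 it was 0.53 and was not called, and against wt replicates 1 and 2 alone it was 0.65.

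In 3bKI, Saa1 read 10.66 in replicate 1, 11.51 in replicate 2, 10.66 in replicate 3, 13.56 in replicate 4 and 12.04 in replicate 5. The wt arrays of that normalization ran from 9.87 over 10.46 to 11.41, so 3 of 5 3bKI arrays lay above every wt array and the 2 groups overlapped. The log2 difference was 1.19 (SE 0.33, 2.28-fold, adjusted p = 0.0068). Without replicate 4 it was 0.72 (adjusted p = 0.061), and against wt replicates 1 and 2 it was 0.71. The second Saa1 probe set was also higher, by 1.17 in 1KI (adjusted p = 0.030) and 1.14 in 3bKI (adjusted p = 0.014).

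Saa2, the other inducible serum form, followed Saa1 array by array but did not pass against wt in either knock-in. Its 1KI values ran from 7.43 over a median of 8.46 to 13.17, beside 7.76 over 8.34 to 9.4 in wt, and its high 1KI arrays were replicates 3, 8 and 9 at 13.17, 12.7 and 10.58. The other 7 1KI arrays read no higher than 8.67, within the wt range or below it. Saa2 differed from wt by 0.94 (SE 0.48, adjusted p = 0.145), by 0.52 without replicate 3 and by 0.06 without replicates 3 and 8. In 3bKI, Saa2 read 8.32, 8.64, 8.56, 11.85 and 9.18 in replicates 1 to 5, with replicate 4 alone above the wt range, and the log2 difference was 0.92 (SE 0.37, adjusted p = 0.058). It was called higher without replicate 1, 2 or 3 of 3bKI or replicate 2 or 9 of wt, and was 0.29 without 3bKI replicate 4. Against 3aKO it was called higher in 3bKI, at 1.09 (SE 0.38, adjusted p = 0.025), but by 0.46 and no longer called without replicate 4.

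Saa3, which is made outside hepatocytes as well, was high in 1 array of the knock-ins only. It read 12.24 in 1KI replicate 3, and the other 9 1KI arrays lay at 8.21 to 9.2, beside 8.49 to 9.43 in wt. Replicate 8, as high as replicate 3 in Saa1 and Saa2, read 9.1 in Saa3, within the wt range. In 3bKI its values were 8.46 to 8.72, and Saa3 passed in no comparison (0.36 in 1KI and −0.17 in 3bKI against wt). In 3aKO, replicate 2 was the highest array at 9.98.

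Saa4, the constitutive form, went in opposite directions from wt in the 2 knock-ins. It was 0.32 higher in 1KI (SE 0.09, adjusted p = 0.0066), where values ran from 12.73 over a median of 13.24 to 13.64 beside 12.5 over 12.92 to 13.2 in wt. In 3bKI it read 12.53, 12.91, 12.19, 12.56 and 12.51 in replicates 1 to 5, beside 12.47 to 13.16 in wt, and was 0.30 lower (SE 0.09, adjusted p = 0.016). The 3bKI call was lost without replicate 3 (−0.21, adjusted p = 0.10). The second Saa4 probe set passed in neither knock-in (0.19 and −0.30). The mean of the probe sets was not called in 1KI (0.25, adjusted p = 0.10) and was called lower in 3bKI (−0.3, adjusted p = 0.04). Whether the 2 changes differ was not tested, since the knock-ins share no normalization.

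**Figure D2:**
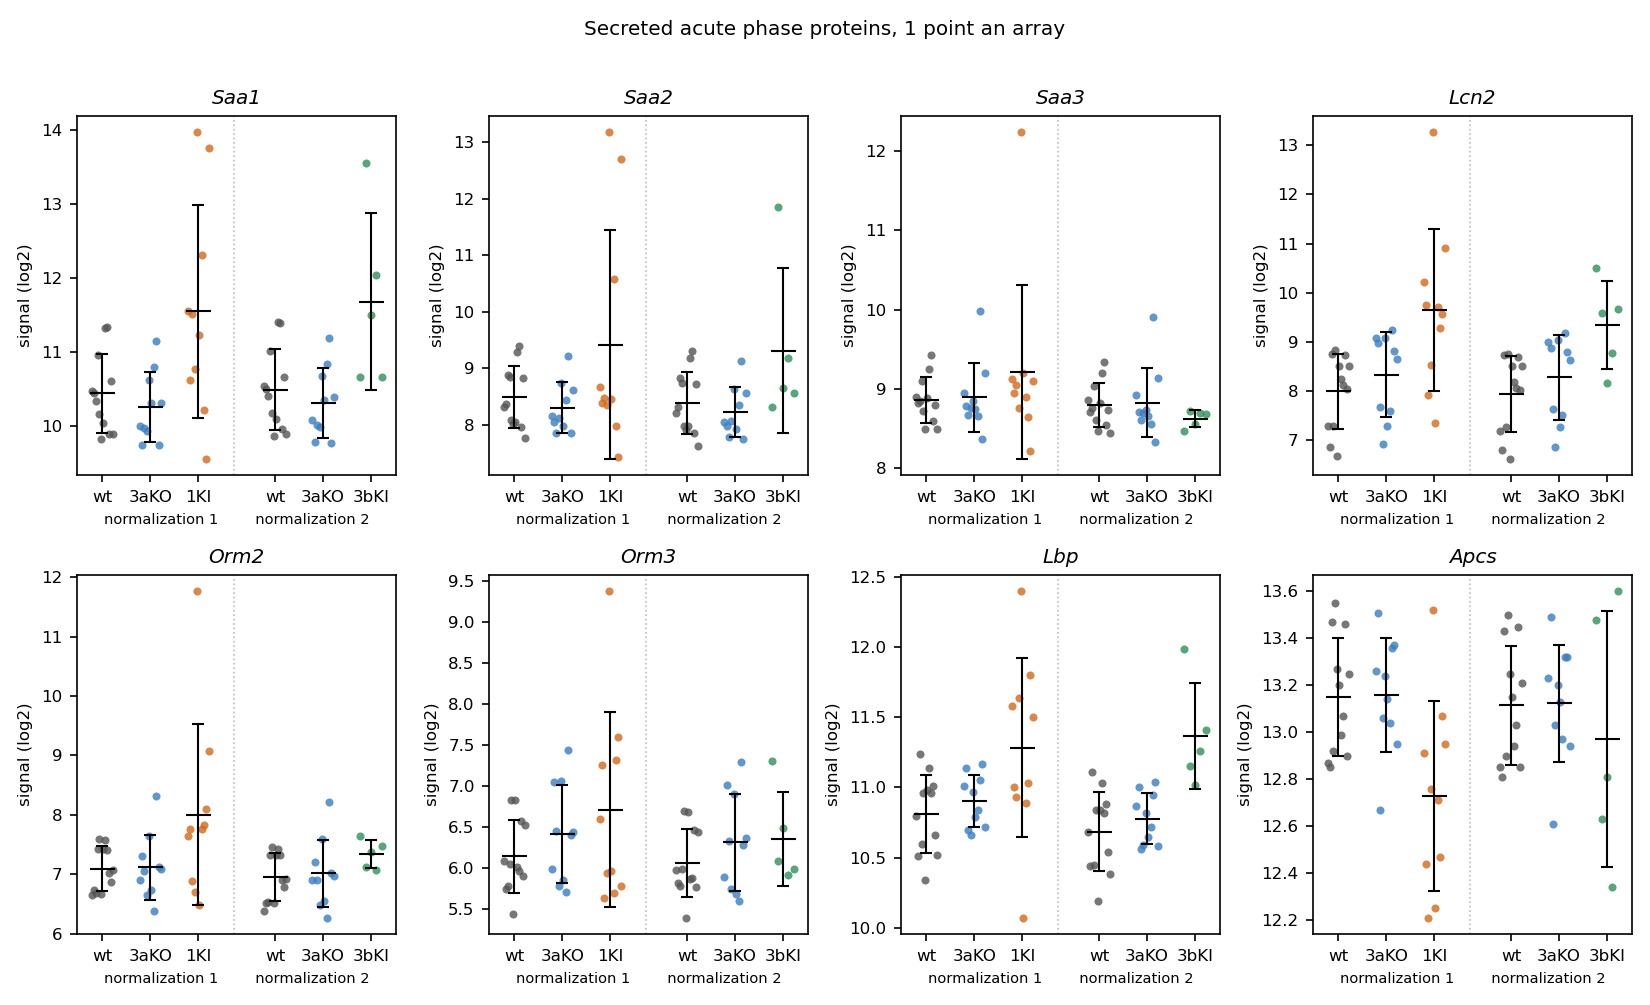
Log2 signal of 8 secreted acute phase proteins in every array (points), with the mean and SD of each group, for wt, 3aKO and 1KI in the first normalization and wt, 3aKO and 3bKI in the second. In the Saa2 and Saa3 panels 1KI replicate 3 is the top point, at 13.17 and 12.24, and in the Saa2 panel 1KI replicate 8 (12.7) and 3bKI replicate 4 (11.85) also stand far above the rest.

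Lcn2, a siderophore-binding protein that withholds iron from bacteria, had the largest difference from wt of the 32 acute phase genes in 1KI. In wt it ran from 6.68 over a median of 8.19 to 8.84, in 3aKO from 6.93 over 8.74 to 9.24 and in 1KI from 7.35 over 9.64 to 13.26. Of the 1KI arrays, 7 of 10 lay above every wt array, and the ranges overlapped through replicates 6, 7 and 10 at 7.35, 7.91 and 8.53. The log2 difference was 1.66 (SE 0.45, 3.15-fold, adjusted p = 0.0064) against wt and 1.31 (SE 0.47, adjusted p = 0.033) against 3aKO. It was 1.25 without replicate 3 (adjusted p = 0.012), 1.05 and still called without replicates 3 and 8, and 1.88 against wt replicates 1 and 2. Against 3aKO it was 0.70 and not called without replicates 3 and 8, and the call was also lost when any 1 of 7 single arrays was left out, 3aKO replicates 6, 7, 9 and 10 and 1KI replicates 1, 3 and 8.

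In 3bKI, Lcn2 read 10.5, 8.16, 9.66, 9.59 and 8.78 in replicates 1 to 5, and all but replicate 2 lay above the highest wt value of 8.76. Lcn2 differed from wt by 1.39 (SE 0.41, 2.63-fold, adjusted p = 0.0094). Without replicate 1 it was 1.10 (adjusted p = 0.054), and against wt replicates 1 and 2 it was 1.65.

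Lcn2 also split by the sex-linked signal of the arrays. Some arrays carried Y-linked signal and some did not, in wt 7 and 5, in 3aKO 5 and 5 and in 1KI 5 and 5, although the labels give no sex. In wt the arrays without it read 8.5 to 8.84 and those with it 6.68 to 8.25, with no overlap. In 3aKO the ranges were 8.82 to 9.24 and 6.93 to 8.66, again with no overlap, while in 1KI they were 9.28 to 13.26 and 7.35 to 10.91. Over the 32 arrays of the first normalization, with genotype in the fit, 4 acute phase genes differed by this signal (all genes 1.86% higher and 3.3% lower in the arrays with it). Lcn2 (−1.35, SE 0.30, adjusted p = 0.0042), Orm3 (−1.04, SE 0.19, adjusted p = 0.00056) and Apcs (−0.36, SE 0.08, adjusted p = 0.0051) were lower in arrays with Y-linked signal. C9, the last component of the membrane attack complex, was higher (0.37, SE 0.07, adjusted p = 0.00091). With this signal in the fit, the difference of Lcn2 between 1KI and wt was 1.54 and was still called.

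The orosomucoids are lipocalin-type carrier proteins that bind drugs and lipids, and none of the 3 passed against wt. Orm2 had 7 of 10 1KI arrays above every wt array and read 11.76 in replicate 3 and 9.07 in replicate 8, beside 6.66 to 7.6 in wt. Its log2 difference was 0.90 (SE 0.37, adjusted p = 0.0656), or 0.49 without replicate 3. Orm3 read 9.37 in 1KI replicate 3 (0.57, SE 0.32, adjusted p = 0.183), and the 1KI arrays without Y-linked signal lay at 6.59 to 9.37 and those with it at 5.63 to 5.96. Orm1, at 12.55 to 13.04 in wt, differed by 0.10 in both knock-ins.

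Haptoglobin and hemopexin scavenge free hemoglobin and heme, and both were high in every liver, near the top of the scale (the highest value of any probe set was 15.06). Hp ran from 14.14 to 14.34 in wt and from 14.23 over 14.34 to 14.74 in 1KI, with 5 of 10 arrays above every wt array, and was 0.15 higher (SE 0.05, 1.11-fold, adjusted p = 0.014). Without replicates 3 and 8 it was 0.08 and not called. Hpx was 0.09 higher in 1KI (SE 0.03, adjusted p = 0.045), a call lost in 14 of the 22 fits that left out 1 array. In 3bKI, Hp (−0.03) and Hpx (0.08) did not pass.

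Ceruloplasmin, a copper-carrying ferroxidase, was called lower in 3bKI (−0.14, SE 0.05, adjusted p = 0.037), but its 8 probe sets did not go one way. In 3bKI against wt 2 of the 8 were higher and 3 lower, and in 1KI 2 were higher and 2 lower, so no direction is given for Cp. Steap4, a metalloreductase, passed in no comparison, with 1KI replicate 3 at 12.73 beside 11.2 to 11.81 in wt.

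Of the fibrinogen chains, which form the clot, only Fga was called. It was 0.28 higher in 3bKI (SE 0.05, 1.22-fold, adjusted p = 8.3e-05), where the arrays read 14.1, 13.96, 14.24, 14.00 and 14.14 beside 13.65 to 14.00 in wt. It was 0.14 higher in 1KI (SE 0.04, 1.10-fold, adjusted p = 0.011), with all 10 arrays above the wt mean. The 2 wt arrays at the higher hybridization control level read 13.91 and 14.00 in the first normalization, and against them the difference was −0.00 in 1KI and 0.16 in 3bKI. Fgb and Fgg differed from wt by −0.01 to 0.01 in both knock-ins, with SEs of 0.04, and did not pass.

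The pattern recognition proteins split. Lbp, which hands bacterial lipopolysaccharide to Cd14, was higher in both knock-ins. In 3bKI it read 11.99, 11.02, 11.41, 11.15 and 11.26 in replicates 1 to 5, beside 10.19 over 10.75 to 11.11 in wt, and all but replicate 2 lay above the wt range. The log2 difference was 0.68 (SE 0.13, 1.61-fold, adjusted p = 0.00024), between 0.53 and 0.77 when single arrays were left out. In 1KI it was 0.47 (SE 0.16, adjusted p = 0.029), with values from 10.07 in replicate 6 to 12.4 in replicate 3, and the call was lost without replicate 1, 3, 5 or 10 of 1KI or replicate 12 of wt. Against wt replicates 1 and 2, Lbp was 0.31 higher in 1KI and 0.51 in 3bKI. The second Lbp probe set passed in neither knock-in (0.11 and 0.14).

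Apcs, serum amyloid P, the main acute phase pentraxin of the mouse, was the 1 gene called lower in 1KI. In wt it ran from 12.85 over a median of 13.14 to 13.55 and in 1KI from 12.21 over 12.74 to 13.52, with 6 of 10 arrays below every wt array. Replicate 3, at 13.52, was the only 1KI array above the wt mean. Apcs differed from wt by −0.42 (SE 0.12, 1.34-fold, adjusted p = 0.010) and −0.43 against 3aKO (SE 0.13, adjusted p = 0.010), and −0.55 from wt without replicates 3 and 8. Against wt replicates 1 and 2 it was −0.20. In 3bKI the arrays read 13.48, 12.81, 13.6, 12.63 and 12.34, and the difference of −0.14 did not pass (adjusted p = 0.557). The highest 2, replicates 1 and 3, were the 3bKI arrays without Y-linked signal.

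Crp, which is only a minor acute phase protein in mice, was 0.19 lower in 3bKI (SE 0.06, adjusted p = 0.027), at 12.26 to 12.61 beside 12.45 to 12.75 in wt. The call was lost without replicate 4 (−0.14, adjusted p = 0.13) and also without replicate 5. In 1KI it differed by −0.14 and did not pass. Cd14, the lipopolysaccharide co-receptor, which is strong on macrophages, passed in no comparison and was at 8.83 in 1KI replicate 3 beside 6.65 to 7.44 in the other 9 1KI arrays.

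None of the 4 protease inhibitors and neither complement protein passed against wt. The largest difference among them was that of C9 in 1KI (0.26, SE 0.11, adjusted p = 0.091). It was called with the Y-linked signal in the fit (0.29, adjusted p = 0.011) or the sex index from which that signal was cut (0.30, adjusted p = 0.011). Without 1KI replicate 3 it was also called (0.31, adjusted p = 0.038). It was −0.09 when the level of the hybridization controls was a block, and 0.08 with the sex index added. Serpina3n differed by 0.19 in 1KI and 0.11 in 3bKI. Serpina3n read 10.85 in 1KI replicate 6 and 11.89 to 12.52 in the others, beside 11.63 to 12.03 in wt. It was called in 1KI without that array (0.32, adjusted p = 0.00034) and with array weights (0.29, adjusted p = 0.0033). Itih3, Itih4, Cfb and A2m lay within 0.16 of wt in both knock-ins. A2m, which is a weak acute phase gene in mice, read 6.14 in 1KI replicate 3 beside a wt mean of 5.01, and 5.74 in 3bKI replicate 3 beside a wt mean of 4.89 in that normalization.

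Each of the 3 cytokine receptors was called in a knock-in, and Il6ra had opposite signs in the 2 knock-ins. In 3bKI, Il6ra read 9.25, 9.06, 7.73, 8.74 and 7.34 in replicates 1 to 5, all below the lowest wt value of 9.62 (median 9.91, highest 10.51). The groups did not overlap, and Il6ra differed by −1.52 (SE 0.20, 2.87-fold, adjusted p = 1.04e-06). It was −1.53 against wt replicates 1 and 2, −1.73 to −1.25 when single arrays were left out, and still called when that level was a block. The second Il6ra probe set was also lower, by −0.66 (adjusted p = 0.0012).

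In 1KI, Il6ra ran from 9.35 over a median of 10.58 to 11.26, beside 9.57 over 9.89 to 10.52 in wt. Of the 1KI arrays 7 lay above every wt array and replicate 1, at 9.35, lay below them all. The log2 difference was 0.65 (SE 0.14, 1.57-fold, adjusted p = 0.00073), 0.64 both without replicates 3 and 8 and against wt replicates 1 and 2. Against 3aKO it was 0.78 (SE 0.15, adjusted p = 0.00011), with 9 of 10 arrays above every 3aKO array. When that level was a block the 1KI differences were 0.64 and 0.77 and were not called. The second probe set differed by 0.29 from wt (adjusted p = 0.099).

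Il6st, the gp130 chain, was lower in 3bKI by its most abundant probe set, at 10.42, 8.41, 10.15, 9.7 and 9.93 in replicates 1 to 5, against 10.7 over 10.91 to 11.09 in wt. The groups did not overlap, and the log2 difference was −1.16 (SE 0.17, 2.24-fold, adjusted p = 3.85e-06). The other 3 probe sets of the gene did not follow. One was higher (0.38, adjusted p = 0.0060) and the others differed by −0.17 and 0.03 and did not pass, so that the mean over the 4 was −0.23 and was not called (adjusted p = 0.052). In 1KI, Il6st differed by 0.01 from wt.

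Il1r1, the interleukin 1 receptor, was higher in 1KI, running from 9.08 over a median of 10.28 to 10.79, beside 8.79 over 9.12 to 9.63 in wt and 9.21 over 9.48 to 9.64 in 3aKO. Of the 1KI arrays 8 lay above every wt array, the exceptions being replicates 1 and 5. Il1r1 differed from wt by 1.01 (SE 0.14, 2.01-fold, adjusted p = 2.46e-06), 0.88 without replicates 3 and 8 and 1.15 against wt replicates 1 and 2, and it was still called when that level was a block. In 3bKI the arrays read 9.35, 9.84, 8.81, 9.03 and 9.09, within the wt range but for replicates 2 and 3, and the difference of 0.08 did not pass. The second probe set had means of 2.80 to 2.89 in wt and the knock-ins and passed in neither.

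**Figure D3:**
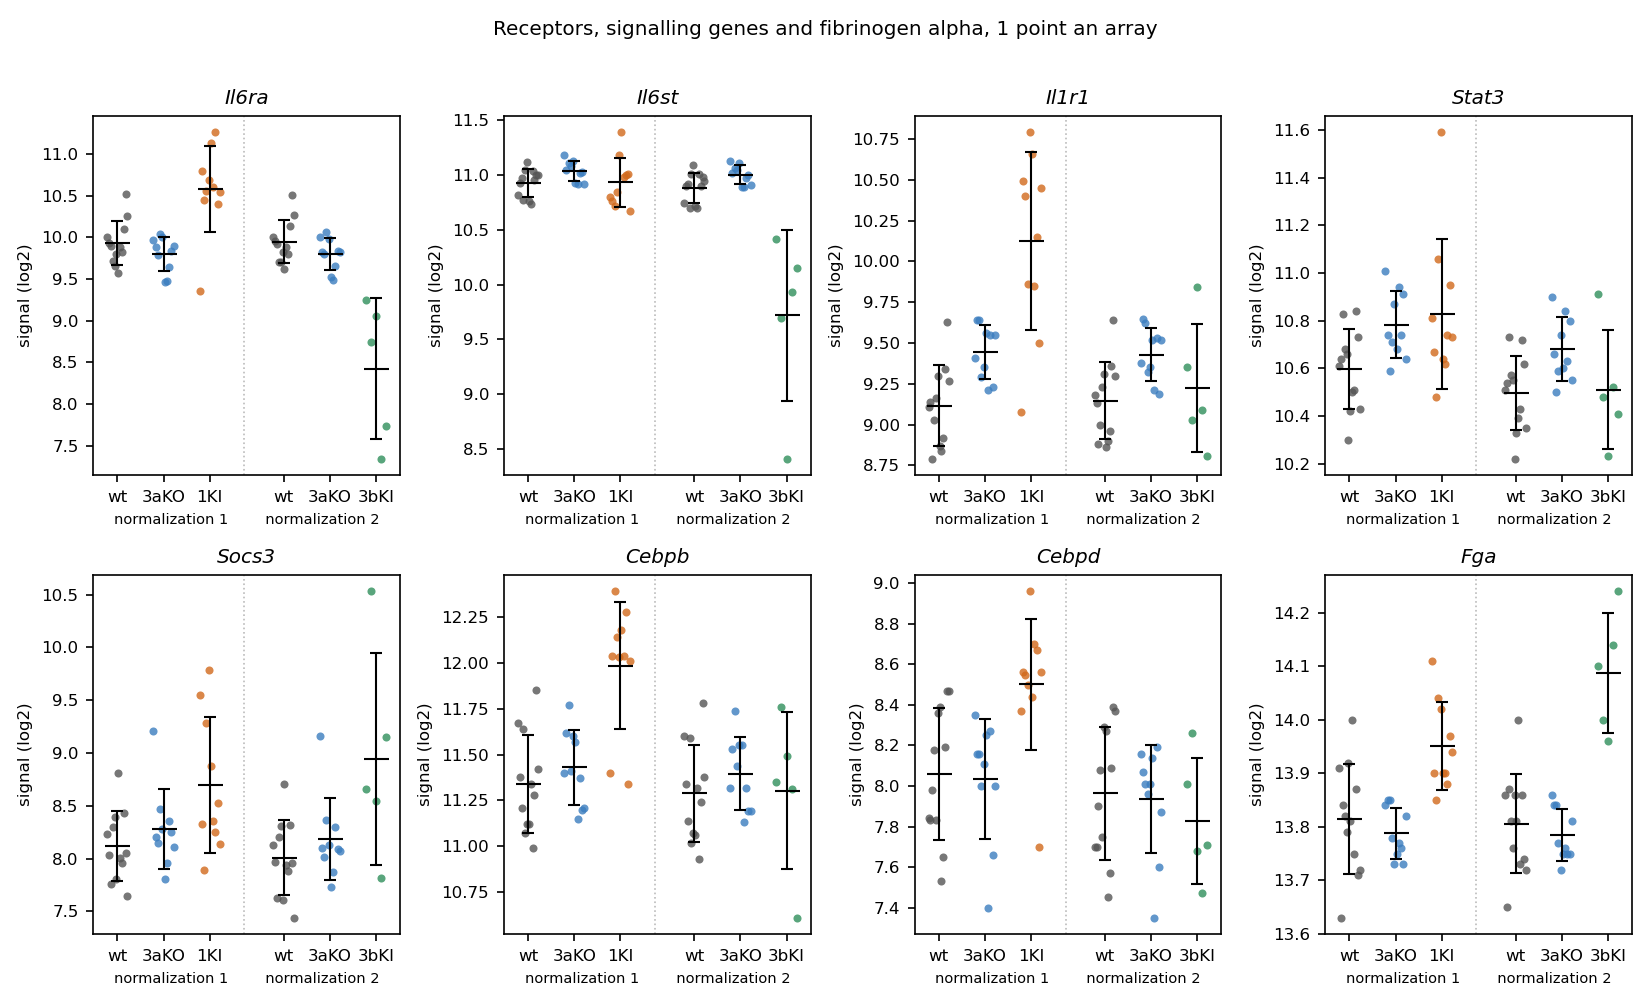
Log2 signal of the cytokine receptors, the signalling and transcription factors and Fga in every array (points), with the mean and SD of each group, laid out by normalization. All 5 3bKI arrays lie below every wt array for Il6ra and Il6st, and 8 of 10 1KI arrays lie above every wt array for Il1r1 and Cebpb.

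By the probe set of highest mean, all 4 signalling and transcription factors were called higher in 1KI against wt, and Socs3 was the 1 called in 3bKI. Cebpb ran from 11.34 over a median of 12.04 to 12.39 in 1KI and from 10.99 over 11.31 to 11.85 in wt, with 8 of 10 arrays above every wt array. Its log2 difference was 0.64 (SE 0.11, 1.56-fold, adjusted p = 5.8e-05), unchanged without replicates 3 and 8, and its second probe set was higher by 0.78. Against wt replicates 1 and 2 it was 0.48. Cebpd ran from 7.7 over 8.56 to 8.96 beside 7.53 over 8.08 to 8.47 in wt, and was 0.44 higher (SE 0.13, adjusted p = 0.0096), or 0.82 against wt replicates 1 and 2. The second Cebpd probe set differed by −0.03 and did not pass, and the mean of the probe sets was 0.21 (adjusted p = 0.043). Replicate 5 was the lowest 1KI array for both genes. In 3bKI, Cebpb differed by 0.01 and Cebpd by −0.14, and neither passed.

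Stat3, the factor activated by interleukin 6, was 0.23 higher in 1KI (SE 0.09, adjusted p = 0.050, just under the threshold before rounding), a call lost in 15 of the 22 fits that left out 1 array. It read 11.59 in replicate 3 and 10.48 to 11.06 in the others, beside 10.3 to 10.84 in wt. In 3bKI this probe set differed by 0.01. Another Stat3 probe set, with a lower signal, was higher in both knock-ins, by 1.12 in 1KI (adjusted p = 8.7e-07) and 0.81 in 3bKI (adjusted p = 0.0012), and a further one by 0.28 and 0.33. The mean of the Stat3 probe sets was called higher in both, by 0.41 in 1KI (adjusted p = 1.3e-05) and 0.33 in 3bKI (adjusted p = 0.00064). All of these measure RNA, not phosphorylated Stat3.

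Socs3 was 0.58 higher in 1KI (SE 0.19, adjusted p = 0.018), at 7.89 over a median of 8.44 to 9.79 beside 7.65 over 8.04 to 8.81 in wt. The high 1KI arrays were replicates 3, 1, 10 and 6 at 9.79, 9.55, 9.28 and 8.88, of which replicates 1 and 3 were also above every wt array for Saa1, and replicate 8 read 8.14. In 3bKI it read 8.66, 8.55, 9.15, 10.53 and 7.82 and was 0.93 higher (SE 0.26, 1.91-fold, adjusted p = 0.0069), or 0.54 without replicate 4 (adjusted p = 0.062). Against wt replicates 1 and 2 it was 0.58 higher in 1KI and 0.91 in 3bKI. The other 2 Socs3 probe sets passed in neither knock-in, at 0.12 to 0.30.

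**Figure D4:**
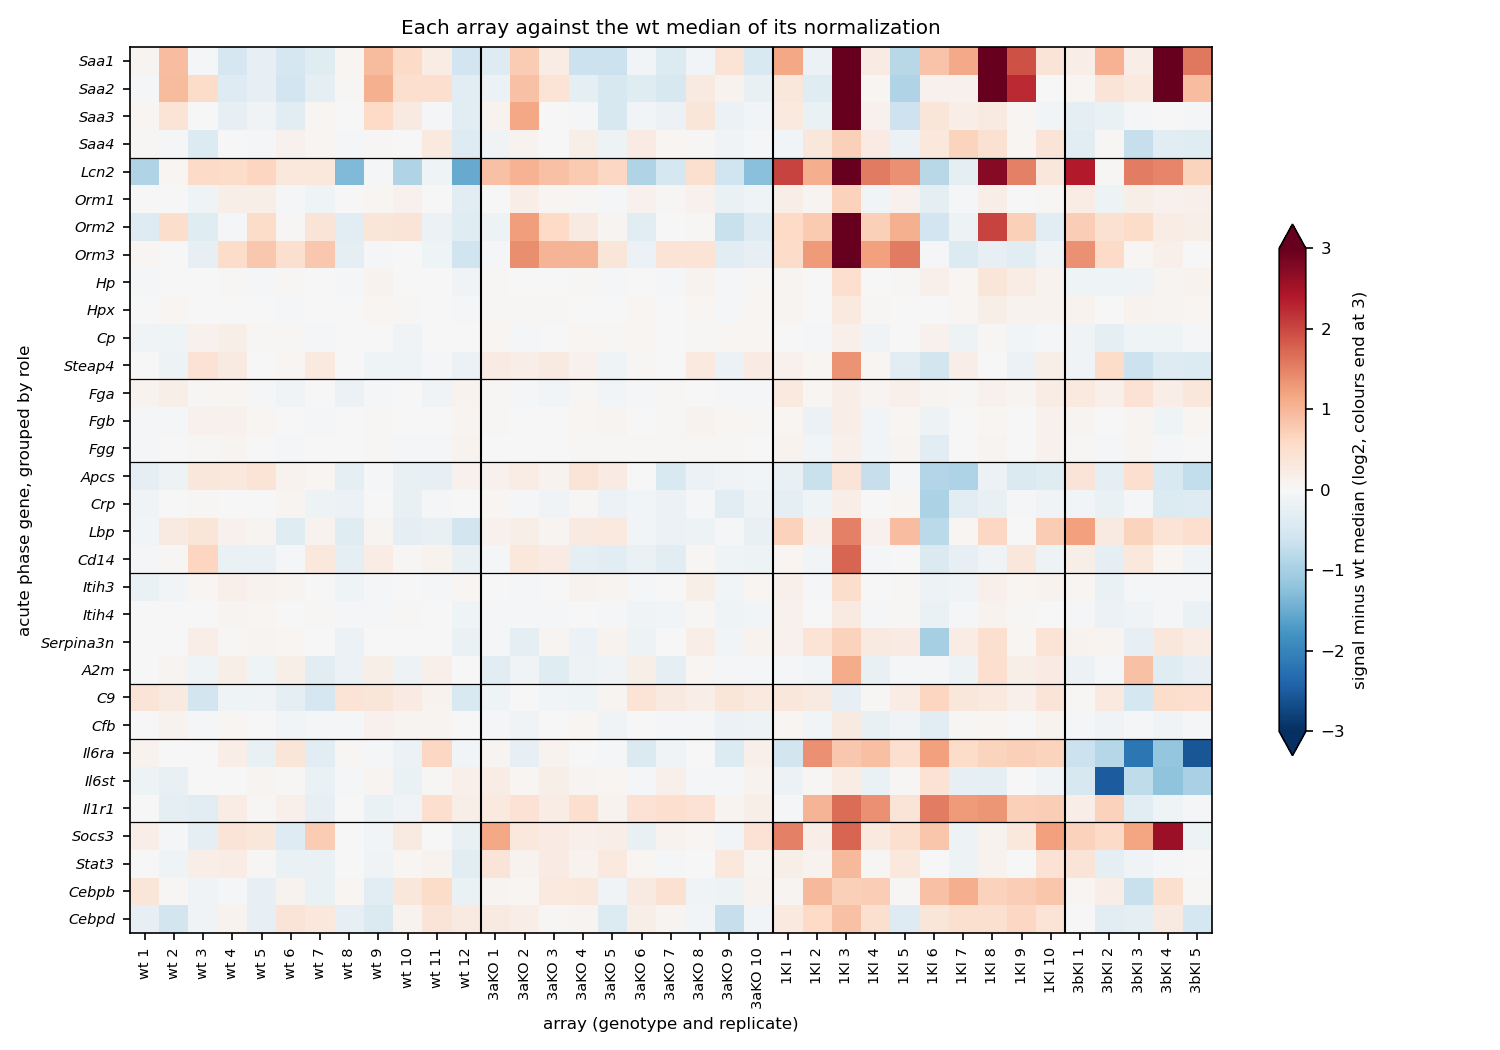
Signal of each acute phase gene (rows, grouped by role) in each array (columns) minus the wt median of its normalization, in log2 units, with colours ending at 3. The column of 1KI replicate 3 is high in most rows, 1KI replicate 8 is high in Saa1, Saa2, Lcn2 and Orm2, 3bKI replicate 4 in Saa1, Saa2 and Socs3, and Il6ra is low across the 5 3bKI columns.

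Across arrays of 1 genotype, Saa2 tracked Saa1 in wt, 3aKO and 1KI, and Saa3 did in wt and 1KI. The relation of Saa1 to 8 genes was computed in wt, 3aKO and 1KI, 24 relations in all, with two-sided permutation tests of 100000 resamples and Benjamini-Hochberg adjustment. In wt the correlation with Saa2 was r = 0.93 (rho 0.90, raw permutation p = 3e-05, adjusted p = 0.00024) and with Saa3 r = 0.94 (rho 0.87, raw permutation p = 1e-05, the smallest that these resamples can give, adjusted p = 0.00024). Without the 2 arrays farthest from the Saa1 median they were 0.85 and 0.86, and over the 10 wt arrays at the lower hybridization control level 0.92 and 0.93. In 3aKO, Saa2 had r = 0.87 (rho 0.77, raw permutation p = 0.0017, adjusted p = 0.0069, adjusted permutation p of rho 0.055) and 0.77 without replicates 2 and 9.

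In 1KI, Saa2 had r = 0.96 (rho 0.99, raw permutation p = 2e-05, adjusted p = 0.00024), and 0.88 without replicates 3 and 8. Hp had r = 0.92 there (rho 0.87, raw permutation p = 0.00029, adjusted p = 0.0017) and 0.73 without them, while in wt it had r = 0.51 and in 3aKO −0.05, neither of which passed. Saa3 had r = 0.72 in 1KI (rho 0.75, raw permutation p = 0.00088, adjusted p = 0.0042, adjusted permutation p of rho 0.071), and replicate 8, high in Saa1 and Saa2, was not high in Saa3. Lcn2 (0.64, adjusted permutation p = 0.095) and Orm2 (0.66, adjusted permutation p = 0.087) did not pass in 1KI, and without replicates 3 and 8 their r was −0.09 and −0.32. Socs3 and Stat3 passed in no genotype. Saa1 and Saa2 probe sets can share signal, and all points of a genotype were normalized together. Arrays with and without Y-linked signal were pooled. In 1KI their means were 11.92 and 11.19 for Saa1, and 8.88 and 10.41 for Lcn2. In wt they were 10.71 and 10.07 for Saa1, 8.72 and 8.15 for Saa2, and 8.97 and 8.7 for Saa3. The part of that signal in the correlations was not tested.

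**Figure D5:**
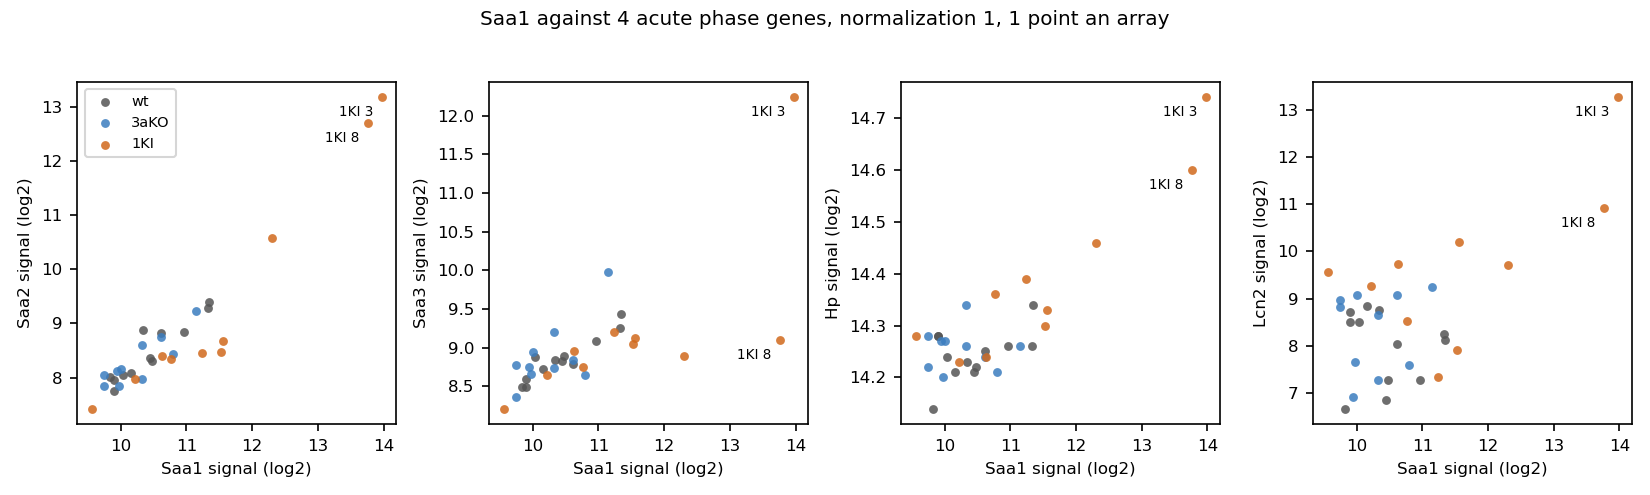
Log2 signal of Saa2, Saa3, Hp and Lcn2 (vertical axes) against that of Saa1 (horizontal axis) in the 32 arrays of the first normalization, 1 point an array, coloured by genotype. 1KI replicates 3 and 8 share the highest Saa1 signals (13.97 and 13.76), but only replicate 3 is high in Saa3.

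Genes of the same response outside the list were looked at through lists of their own, each read beside the share of all genes called, 10.2% higher and 17.5% lower in 1KI and 13.4% higher and 15.9% lower in 3bKI. Of 20 further positive acute phase genes, 2 were higher and 4 lower in 1KI against wt, and 3 higher and 6 lower in 3bKI, with 0 called in 3aKO, where no gene of the other lists was called either. In 1KI these were 10.0% and 20.0% of the list, near the shares of all genes, and the 6 lower in 3bKI were 30.0%. Hamp2, a relative of the iron hormone hepcidin, was lower in 1KI (−1.94, SE 0.29, adjusted p = 5.3e-06), as was the mannose-binding lectin Mbl2 (−0.35, SE 0.05, adjusted p = 5.7e-06). Hc, complement C5, was higher in 1KI (0.72, SE 0.12, adjusted p = 2e-05) and in 3bKI (1.28, SE 0.15, adjusted p = 2e-07), and coagulation factor V, F5, was lower in 3bKI (−0.59, SE 0.05, adjusted p = 3.5e-09). Of 11 negative acute phase genes, whose products fall in inflammation, 1 was lower in 1KI and 2 in 3bKI, and none was higher. The lower share, 9.09% in 1KI and 18.2% in 3bKI, was not far from that of all genes. The corticosteroid-binding globulin Serpina6 was lower in both (−0.27 and −0.71).

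Of 19 further genes of interleukin 6 and Stat3 signalling, 3 were higher and 1 lower in 1KI, and 6 higher and 1 lower in 3bKI. The share called higher was 15.8% and 31.6%, beside 10.2% and 13.4% of all genes. The kinase Tyk2 was higher in both (0.20 and 0.33), and the related kinase Jak2 was lower in 3bKI (−0.37). The Stat3 target Pim1 was 0.49 higher in 1KI, and Bcl3, an atypical IkB protein, was higher by 0.41 in 1KI and 0.56 in 3bKI. Of 19 genes of interleukin 1, tumour necrosis factor and NF-kB signalling, 5 were higher and 0 lower in 1KI, and 5 higher and 2 lower in 3bKI, with 26.3% called higher in each. Rela, the p65 subunit of NF-kB, was higher in both (0.23 and 0.42), and the kinase Irak1 was 0.36 higher in 1KI. Nfkbia, which holds NF-kB in the cytoplasm, differed by −0.46 in 3bKI and was called lower. Of 9 liver transcription factors, 2 were higher and 1 lower in 1KI and 0 higher and 2 lower in 3bKI, with Hnf4a 0.22 higher in 1KI and the glucocorticoid receptor Nr3c1 lower in both (−0.15 and −0.22). With 9 genes, 1 call is 11.1% of the list, and nothing is read from these counts.

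Markers of other cell types were called in part, in lists so short that 1 or 2 calls lie near the shares of all genes (10.2% higher and 17.5% lower in 1KI, 13.4% and 15.9% in 3bKI). Of 11 neutrophil markers, S100a8 was higher in 1KI (0.65, SE 0.23, adjusted p = 0.031) and none was called in 3bKI. In 1KI replicates 3, 8, 9 and 1, S100a8 read 7.96, 6.95, 6.45 and 6.4. The remaining 1KI arrays read 5.31 to 5.84, beside 4.81 to 5.89 in wt. The median log2 difference of the neutrophil list was 0.0 in 1KI. Of 12 Kupffer cell and macrophage markers, 0 were called in 1KI against wt, and 2, Cd5l (0.54) and C1qc (0.52), were higher in 3bKI against wt. The other 10 did not pass there, and they did not all go one way. Marco read 7.64, 5.58, 7.89, 6.29 and 5.64 in 3bKI replicates 1 to 5, beside 6.75 to 7.51 in wt. In 3bKI against 3aKO 1 marker was higher and 1 lower. In 1KI against 3aKO 4 were lower, 33.3% of the list beside 19.0% of all genes. Of 6 stellate cell markers, 1 was lower in 1KI, and 1 was higher and 3 lower in 3bKI. Of 6 sinusoidal endothelial markers, 1 was lower in 1KI and 1 higher in 3bKI. The mean over the macrophage markers was 9.07 to 9.49 in wt, 8.58 to 10.23 in 1KI and, in the second normalization, 8.89 to 9.82 in 3bKI. The part of these cells in the acute phase differences was not tested, nor was that of the hybridization control level beyond the values given.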

How the data were processed

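Liver RNA was labelled from 5 µg of total RNA per the labels' protocols and read on Affymetrix arrays. The deposited values are on a log2 scale (2.13 to 15.06 over 45101 probe sets), already normalized by the authors in 2 sets, 59 columns from 37 arrays. The method of normalization is named in no source used here. Probe sets were named through the platform annotation, which was given with the data: 34945 had 1 symbol, 932 had several and were named by none, and the 64 control probe sets were left out. Each gene was read from the probe set with the highest mean, 18193 genes in all.

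Differences were tested with limma 3.58.1 (lmFit and eBayes, R 4.3.3) over all genes, with the 3 genotypes of a normalization in 1 fit and Benjamini-Hochberg adjustment, called at an adjusted p of 0.05, and the fit was tested on simulated data. Correlations used numpy 2.4.6 and scipy 1.17.1. An array counted as high on hybridization controls when it read at least as high as the lowest 1KI or 3bKI array beside it. The sex index was the mean of the 3 Xist probe sets minus that of the 9 Y-linked probe sets. An array counted as having Y-linked signal when its index lay below the middle of the index range of its normalization. Alternatives varied the probe set rule, normalization, weights, covariates, replicate block and arrays left out. The number of arrays limits the precision.

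The genes, lists and tests were chosen with earlier results of these data known. Named genes were Saa1, Saa2, Lcn2, Il6ra, Socs3, Stat3 and Apcs in every comparison with wt, the 12 called members with the largest change, others where their role group is described, and up to 3 of a list by smallest p. E2f1, E2f3, S100a8, S100a9, Mpo, Ngp, Camp, Cd5l, C1qc and Marco fall outside that rule and were named after their values were seen.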

Additional observations from a re-analysis of the deposited data

Results flagged for a closer look

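Of 96 sets looked at (32 genes in 3aKO, 1KI and 3bKI), 19 had 1 array with a gap to its nearest neighbour that was large for the range of its group. The cut used gives about 1 set in 20 for independent normal values. The sets share arrays and are not independent, so that rate is no yardstick for the 19. The value given for each is that gap as a share of the range. In 8 of the 19 the array was 1KI replicate 3 at the high end, namely Saa3 (0.754), Cd14 (0.638), Steap4 (0.614), Itih3 (0.529), Orm2 (0.509), Orm1 (0.505), Stat3 (0.477) and Orm3 (0.476). Saa1, Saa2 and Lcn2 of that array were not among them, since replicate 8 lay next to it. This array also had the highest macrophage and neutrophil marker means of its group, 10.23 and 6.21, the latter raised through S100a8 and S100a9. The part of these cells in these values was not tested.

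In 1KI replicate 6 the array was low in Serpina3n (0.623), Crp (0.552) and Fgg (0.5), and this array had the largest gap between the 3′ and 5′ ends of control transcripts (1.75), whose part was not tested. In 1KI replicate 1 Il6ra was low (0.55), and in 1KI replicate 5 Cebpd was low (0.532). In 3aKO, Socs3 was high in replicate 1 (0.529), and replicate 2 was high in Saa3 (0.481) and low in Cp (0.571). In 3bKI, Saa2 was high in replicate 4 (0.756), Orm1 low in replicate 2 (0.763) and A2m high in replicate 3 (0.742).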

How the results depend on the processing

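A block for the hybridization controls gave 2 genes higher and 0 lower in 1KI against wt, 1 and 0 against 3aKO, and for 3bKI 0 and 2 against either; adding the sex index gave 2 and 0, 0 and 0, and 0 and 2 in both 3bKI comparisons. Against 3aKO the 3bKI fit on those 2 groups alone gave 3 higher, the mean of the probe sets gave 2 lower, and array weights gave 2 lower in 1KI against 3aKO. The 1KI counts without replicates 3 and 8, chosen after seeing the data, were 8 and 1 against wt and 6 and 1 against 3aKO. Same-numbered arrays were not treated as pairs. Their correlations ran from −0.345 to 0.383, with 7 of 10 over 0.1 for 1KI against 3aKO and 6 of 10 for 3aKO against wt. In 1KI and 3aKO, replicates 1 to 5 lacked Y-linked signal and replicates 6 to 10 carried it. The replicate block gave 5 higher and 1 lower for 1KI against wt, for 3bKI 0 and 2 against wt and 1 and 3 against 3aKO, and 1 higher in 3aKO against wt. Leaving out single arrays gave 10 to 15 higher and 1 lower in 1KI against wt, 6 to 12 and 1 against 3aKO, 3 to 6 and 3 to 6 in 3bKI against wt, 3 to 6 and 4 to 5 against 3aKO, and 0 in 3aKO against wt. Fga changed sign with the level block (−0.00 and −0.02 with the sex index against wt, −0.01 and −0.02 against 3aKO in 1KI), Cp for 3bKI against wt (0.02) and Stat3 for 3bKI against 3aKO (0.30) with the mean of the probe sets. Elsewhere counts stayed within 1.5 times. The causes were not tested, and 5 3bKI arrays limit that group most. The share of all genes called is given for none of these alternative fits, so their counts have no background beside them.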
